A study of Mus musculus with 161 samples.

Results

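The receptors for haematopoietic growth factors are described here across single cells of the monocyte lineage of the mouse. The group was named gene by gene and not chosen on measured values: Csf1r, Kit, Flt3, Csf2ra, Csf2rb, Csf2rb2 and Csf3r, which are 7 of the 43280 gene symbols in the deposited table. All 7 were in the table, and all 7 counted as measured, as 14003 genes did, by exceeding 1 TPM in 10% or more of a cell type's cells. TPM is the abundance of a transcript corrected for its length and scaled to a fixed total per cell, so levels of different genes can be set side by side on that scale.

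The series holds 161 libraries of untreated primary cells from C57BL/6 mice, each from 1 cell captured on a C1 microfluidic circuit. The 66 common monocyte progenitors (cMoP) came from bone marrow and were sorted without lineage markers as CD117+ CD115+ CD135- Ly6C+ cells. The 57 bone marrow (BM) monocytes had the same gate except that they were CD117-, and the 38 blood monocytes were sorted as CD115+ CD11b+ cells with high Ly6C. No label names an animal, its age or its sex, so each cell type is 1 sample of cells, no difference has a replicate check and no test between cell types was run. Values are given as the spread over cells, and a difference between cell types is that of mean log2(TPM + 1), counted when it reached 1 log2 unit.

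Growth factor receptors on blood-forming cells fall into separate structural families. The receptor tyrosine kinases Csf1r, Kit and Flt3 each form a dimer around their own ligand, and their proteins, CD115, CD117 and CD135, are routine sort markers. The cytokine receptors have no kinase of their own and signal through bound Janus kinases: Csf2ra binds GM-CSF and pairs with the common beta chain Csf2rb, which also serves the interleukin 3 and interleukin 5 receptors, whereas Csf3r binds G-CSF as a single type of chain. Proteins of 3 of the 7 genes therefore defined the gates, and the transcripts of Kit, Csf1r and Flt3 check the sort and are not findings about it.

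Csf2rb and Csf2rb2 are neighbouring near-copies, and the extent of their likeness bears on every value given for them. Csf2rb2 encodes a beta chain specific to interleukin 3 in the mouse. On GRCm38 the annotation places Csf2rb at chr15:78325752-78353847 on the plus strand and Csf2rb2 at chr15:78282507-78305721 on the minus strand, with 20030 bases between them. Their coding sequences, of 2688 and 2634 bases, were identical at 95.4% of 2626 aligned bases, with 122 substitutions and an unbroken identical run of 242 bases. Of all 50-base stretches of the Csf2rb coding sequence, 26% occurred unchanged in Csf2rb2. The first pair of sequences below is a stretch of 90 bases identical in both genes, and the second pair is the least alike stretch of that length, with its 16 differing bases in capitals (GENCODE vM21 transcripts Csf2rb-201 and Csf2rb2-201, written 5′ to 3′).
Csf2rb, coding bases 662 to 751: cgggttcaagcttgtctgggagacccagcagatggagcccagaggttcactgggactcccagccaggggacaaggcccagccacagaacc
Csf2rb2, coding bases 665 to 754: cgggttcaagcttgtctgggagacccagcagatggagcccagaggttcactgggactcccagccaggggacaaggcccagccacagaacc
Csf2rb, coding bases 308 to 397: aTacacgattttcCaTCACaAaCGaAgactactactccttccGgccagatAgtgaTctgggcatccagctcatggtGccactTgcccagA
Csf2rb2, coding bases 311 to 400: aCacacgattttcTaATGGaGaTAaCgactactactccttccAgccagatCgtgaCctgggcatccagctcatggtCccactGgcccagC

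Libraries differed in how many genes they held. The median cMoP had 6661.5 genes above 1 TPM, the median BM monocyte 4719 and the median blood monocyte 4319.5, and read depth is unknown because TPM does not keep it. All monocytes share 1 flow cell and lane, 60 cMoP libraries come from another flow cell, and 6 cMoP libraries carry none in their label and held 8720 to 9971 genes. Cell type and flow cell cannot be told apart in any comparison of cMoP with monocytes. Median summed levels of defining markers differed in the direction of the labels. For 7 cMoP markers they were 24435 TPM in cMoP, 5858 TPM in BM and 2588 TPM in blood monocytes. For 6 classical monocyte markers they were 6946, 63068 and 62703 TPM. Single genes weighed heavily in these sums: the medians of Ly6c2, which is in both lists, were 5399, 5858 and 2496 TPM. Those of Lyz2, a classical monocyte marker, were 645, 52936 and 53611 TPM. Blood cells were not uniform: Ly6c2 exceeded 10 TPM in 35 of 38, and their lowest classical sum was 478 TPM. Values close to 1 TPM carried little information, since lymphocyte genes were listed there too: Ms4a1, Cd3d and Ebf1 exceeded 1 TPM in 22.7% to 24.2% of cMoP and in 22.8% to 33.3% of BM and 26.3% to 44.7% of blood monocytes, but above 10 TPM in at most 3.51% of any cell type. Shares above 10 TPM are therefore given beside those above 1 TPM.

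**Figure D1:**
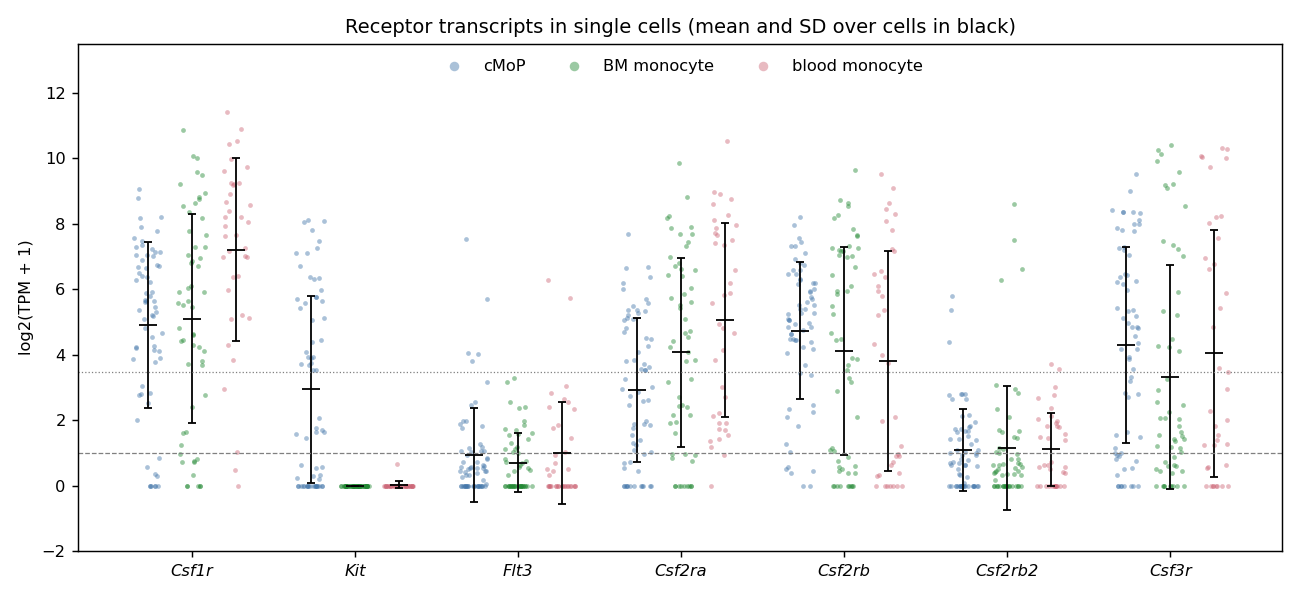
Level of each receptor gene in every cell, as log2(TPM + 1) on the vertical axis, for cMoP, BM monocytes and blood monocytes; each point is 1 cell, black marks are the mean with SD over cells, and the dashed and dotted lines stand at 1 and 10 TPM. Kit is at 0 in all 57 BM monocytes, Csf1r is highest in blood monocytes, and most Flt3 and Csf2rb2 values lie under the dotted line.

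Csf1r, the receptor for CSF-1 and interleukin 34 on which monocytes and macrophages depend, was the receptor with the highest mean level in BM and blood monocytes. In cMoP its lowest, median and highest values were 0, 45.1 and 535 TPM. In BM monocytes they were 0, 45.2 and 1858 TPM, and in blood monocytes 0, 221 and 2715 TPM. The ranges overlapped from 0 upwards, but 6 of 57 BM monocytes and 11 of 38 blood monocytes lay above every cMoP, with nearly the same median in both bone marrow populations and a higher one in blood. Csf1r exceeded 10 TPM in 50 of 66 cMoP, a share of 75.8% (95% exact interval 63.6% to 85.5%). It did so in 41 of 57 BM monocytes (71.9%, 58.5% to 83%), and 34 of 38 blood monocytes held it (89.5%, 75.2% to 97.1%). These intervals and all others here cover only the counting of cells. Mean log2 levels were 4.91 ± 2.53 (SD over 66 cells), 5.10 ± 3.20 (57 cells) and 7.21 ± 2.80 (38 cells), so blood and BM monocytes, which share a lane, differed by 2.11, which is less than the SD over cells of either. The difference between BM monocytes and cMoP was 0.19, and 1.31 among cells with 4500 to 6000 genes. Although every gate required CD115 on the surface, 10 cMoP, 11 BM monocytes and 2 blood monocytes had no Csf1r above 1 TPM.

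Kit, the receptor for stem cell factor on early progenitors, was found in cMoP and was at or near 0 in monocytes. The bone marrow gates selected on its protein, so the contrast of cMoP with BM monocytes is no finding. The blood gate did not name CD117, so against blood monocytes only the cMoP side was selected on that protein. In cMoP the lowest, median and highest values were 0, 2.79 and 278 TPM, and 20 of 66 cells were at 0. Kit was listed at 0 in all 57 BM monocytes, and in 37 of 38 blood monocytes, with 0.57 TPM in the remaining cell. Of the cMoP, 32 (48.5%, 36% to 61.1%) held more than 10 TPM, with a median of 49.8 TPM among them. For 0 of 57 BM monocytes and 0 of 38 blood monocytes the limit, set at 3 cells of the total, is 5.26% and 7.89%, and the exact 95% interval reaches 6.27% and 9.25%. The mean log2 level in cMoP was 2.94 ± 2.86, close in size to its own SD. All 6 cMoP libraries without a flow cell held Kit above 10 TPM, and 26 of the other 60 did (43.3%). The gene lies at chr5:75574916-75656722 on the plus strand.

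Markers of other cells known for Kit were examined in cMoP. The mast cell and basophil genes Fcer1a, Prss34 and Gata2 were at 0 in all 66 cMoP, and Cpa3 and Ms4a2 never exceeded 10 TPM. Mcpt8 did so in 11 cMoP, of which 6 were among the 32 with Kit above 10 TPM and 5 among the 34 others, and Hdc in 17, of which 11 and 6. The summed level of that list of 7 genes ranged from 0 to 1559.5 TPM with a median of 1.1 TPM. Of 6 stem and multipotent progenitor markers, Mecom and Procr never exceeded 10 TPM, and the list summed to between 0.37 and 591 TPM. Cd34, a surface glycoprotein of early progenitors, exceeded 10 TPM in 29 of the 32 cMoP with Kit above that level and in 21 of the 34 without. The part of cells with these markers in the Kit values was not tested.

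Flt3, the receptor for FLT3 ligand on multipotent progenitors and dendritic cell precursors, was low in all 3 cell types. Its lowest, median and highest values were 0, 0.39 and 184 TPM among cMoP, 0, 0.24 and 8.75 TPM in BM monocytes, while blood monocytes had 0, 0 and 77.1 TPM. It exceeded 1 TPM in 30.3%, 33.3% and 31.6% of the cells, beside 24.2%, 33.3% and 44.7% for the B cell gene Ebf1. Above 10 TPM were 5 of 66 cMoP (7.58%, 2.51% to 16.8%), 0 of 57 BM monocytes and 2 of 38 blood monocytes (5.26%, 0.644% to 17.7%). The gates of cMoP and BM monocytes excluded CD135, and the gate of blood monocytes did not name it. A single cMoP with 184 TPM held 56.1% of the summed Flt3 of that cell type, and without it the mean of 4.96 TPM became 2.21 TPM. In blood the cells with 77.1 and 52.5 TPM stood apart from the next at 7.17 TPM, and without the highest the mean of 4.53 TPM became 2.57 TPM. The gene lies at chr5:147330741-147400489 on the minus strand.

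The few cells with Flt3 above 10 TPM were looked at one by one for dendritic cell transcripts. The 2 blood cells held none of 6 conventional and none of 6 plasmacytoid dendritic cell markers above 10 TPM, with sums of at most 0.64 and 4.41 TPM. Both were labelled as blood monocytes and held Csf1r at 36.4 and 18.8 TPM, under the lower quartile of 67 TPM of that cell type. The 5 cMoP held conventional dendritic cell markers summing to 236, 88.9, 64.4, 348 and 0 TPM, and Clec10a exceeded 10 TPM in 4 of these 5 cells and in 9 of the other 61 cMoP. Zbtb46, Clec9a, Cd209a and Batf3 did so in 1 of the 5 cells each, and Xcr1 in none. Clec10a also exceeded 10 TPM in 15 of 57 BM monocytes, none of which held Flt3 above that level. The cell with 184 TPM of Flt3 was the one with a sum of 0. It held 144 TPM of plasmacytoid and 322 TPM of stem and progenitor markers, with a single gene of each list above 10 TPM. These were Tcf4, which exceeded 10 TPM in 39 of 66 cMoP, and Cd34, which did so in 50 of 66. Siglech, Ccr9, Ly6d, Klk1 and Cox6a2 did not exceed 10 TPM in any of the 5 cells. Of these 5 cells, 2 came from the 6 libraries that name no flow cell. Those 2 held 2 and 4 of the 6 conventional dendritic cell markers above 10 TPM, and the cells with a named flow cell held 1, 1 and 0. Conventional dendritic cell markers other than Clec10a thus exceeded 10 TPM only in the 2 libraries without a flow cell.

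Csf2ra, the chain that binds GM-CSF, was lowest in cMoP, higher in BM monocytes and higher again in blood monocytes. Its lowest, median and highest values were 0, 6.51 and 205 TPM among cMoP, 0, 18 and 934 TPM in BM monocytes, while blood monocytes had 0, 38.2 and 1485 TPM. Ranges overlapped, with the median and the highest value increasing in that order. It exceeded 1 TPM in 74.2% of cMoP (62% to 84.2%) and 75.4% of BM monocytes (62.2% to 85.9%), with 94.7% for blood monocytes (82.3% to 99.4%), and 10 TPM in 45.5%, 56.1% and 63.2%. Mean log2 levels were 2.93 ± 2.21, 4.07 ± 2.89 and 5.05 ± 2.97, so neighbouring cell types differed by 1.14 and 0.98, less than the SD over cells. With a pseudocount of 10 TPM the first difference was 0.82 and so under 1, and with median-ratio scaling the second was 1.12. The gene lies at chr19:61223957-61228429 on the minus strand.

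Csf2rb, the common beta chain, was detected in most cMoP and in fewer monocytes, although its mean TPM went the other way. The lowest, median and highest values were 0, 33 and 295 TPM among cMoP, 0, 20.7 and 809 TPM in BM monocytes, while blood monocytes had 0, 13.7 and 735 TPM. Medians were lower in the monocytes while their highest values were above every cMoP. Shares above 10 TPM were 51 of 66 cMoP (77.3%, 65.3% to 86.7%), 33 of 57 BM monocytes (57.9%, 44.1% to 70.9%) and 20 of 38 blood monocytes (52.6%, 35.8% to 69%). Mean levels were 53.8, 90.9 and 97.5 TPM, and mean log2 levels 4.73 ± 2.10, 4.13 ± 3.18 and 3.80 ± 3.36. The log2 difference between BM monocytes and cMoP was -0.61, while the log2 ratio of mean TPM was 0.76. Among cells with 4500 to 6000 genes the difference was 0.67, and the share with Csf2rb above 1 TPM was 70.6% for 17 cMoP, 69.7% for 33 BM monocytes and 78.6% for 14 blood monocytes, against 90.9%, 70.2% and 60.5% of all cells. The order of the cell types was thus not the same at a matched number of genes. The 6 cMoP libraries without a flow cell held 59.1 to 295 TPM, with a median of 123 TPM, against 30.1 TPM in the other 60.

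Csf2rb2 had low values outside a few cells. Its lowest, median and highest values were 0, 0.68 and 54.7 TPM among cMoP, 0, 0.41 and 388 TPM in BM monocytes, while blood monocytes had 0, 0.535 and 12.1 TPM. Only 3 cMoP, 4 BM monocytes and 2 blood monocytes exceeded 10 TPM, and its shares above 1 TPM, 40.9%, 29.8% and 44.7%, stand beside those of Ebf1 given for Flt3. In 8 of these 9 cells Csf2rb exceeded 10 TPM as well. The BM monocyte with 388 TPM of Csf2rb2 also held the highest Csf2rb of its cell type, 809 TPM, and without it the mean of 13.9 TPM became 7.27 TPM. In 3 of the 9 Csf2rb2 was the higher of the pair: BM monocytes with 179.9 against 57.4 TPM and 77.7 against 3.24 TPM, and a cMoP with 54.7 against 20.9 TPM. How reads from shared stretches like the first pair printed above were divided was not tested, so the split between the copies is uncertain in every cell.

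Csf3r, the G-CSF receptor best known from neutrophils and their progenitors, was present in all 3 cell types with a wide gap between low and high cells. The lowest, median and highest values were 0, 24.9 and 731 TPM among cMoP, 0, 2.50 and 1347 TPM in BM monocytes, while blood monocytes had 0, 5.29 and 1285 TPM. It exceeded 10 TPM in 40 of 66 cMoP (60.6%, 47.8% to 72.4%), 20 of 57 BM monocytes (35.1%, 22.9% to 48.9%) and 18 of 38 blood monocytes (47.4%, 31% to 64.2%). Above 1 TPM the shares lay closer together, at 74.2%, 68.4% and 71.1%. Among cells above 10 TPM the median was 78.7, 169 and 222 TPM. Among cells with 4500 to 6000 genes, an alternative chosen after seeing the data, 6 of 17 cMoP exceeded 10 TPM, as did 6 of 33 BM and 6 of 14 blood monocytes, so the lower share in blood than in cMoP was not seen there. BM monocytes had a lower share than cMoP in both. Mean log2 levels were 4.28 ± 3.0, 3.31 ± 3.42 and 4.04 ± 3.78, with differences of -0.97 from cMoP to BM monocytes and 0.72 from BM to blood monocytes, both under the SD over cells. The first was -1.45 without the 11 cMoP libraries with over 15% mitochondrial TPM and the blood library with under 1% ribosomal protein TPM, and its ratio of mean TPM had the other sign, at 0.71. The gene lies at chr4:126024550-126044440 on the plus strand.

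Neutrophil transcripts were examined in the same cells, since Csf3r is shared with that lineage. Ltf, Camp, Ngp and Retnlg, which define maturing neutrophils, were at 0 in all 57 BM and all 38 blood monocytes. In cMoP, Ngp and Retnlg were at 0 throughout and Camp exceeded 10 TPM in 1 cell. Lcn2 exceeded 10 TPM in 5 of the 40 cMoP with Csf3r above that level and in 2 of the 26 without, in 2 of 20 and 2 of 37 BM monocytes and in no blood monocyte. Mmp8 did so in 3 of the 40 and 1 of the 26 cMoP. It exceeded 10 TPM in 8 of the 20 BM monocytes with Csf3r above that level and in 18 of the 37 without, and in 5 of 18 and 4 of 20 blood monocytes. Cxcr2 exceeded 10 TPM in 6 of 40 and 10 of 26 cMoP, in 3 of 20 and 7 of 37 BM monocytes and in 5 of 18 and 8 of 20 blood monocytes. The summed level of the 7 neutrophil markers ranged up to 214, 1341 and 1734 TPM in cMoP, BM monocytes and blood monocytes, with medians of 7.29, 18.7 and 13.1 TPM.

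**Figure D2:**
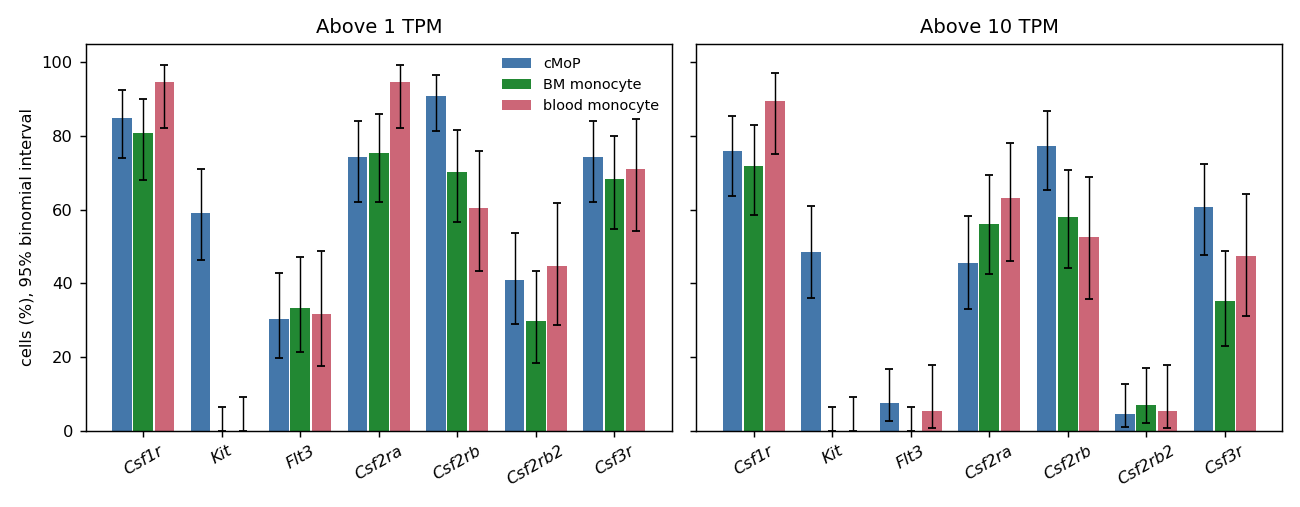
Percent of cells above 1 TPM (left) and above 10 TPM (right) for each receptor gene in cMoP, BM monocytes and blood monocytes, with 95% exact binomial intervals over cells as error bars. Flt3 and Csf2rb2 reach 29.8% to 44.7% of cells above 1 TPM and at most 7.58% above 10 TPM, while Csf1r stays at 71.9% or more.

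Few of the 7 genes passed the size set for a difference. From cMoP to BM monocytes Csf2ra was higher and Kit lower, 1 of 7 in each direction, where 3.94% of all 14003 measured genes were higher and 30.8% lower by that rule. In either direction that is 2 of 7, against 34.7% of all genes. The median difference was -0.24 for the receptors and -0.45 for all measured genes. From BM to blood monocytes Csf1r was higher (1 of 7, against 1.96% of all genes) and 0 of 7 lower (9.66%), against 11.6% in either direction, with medians of 0.28 and -0.10. Blood monocytes against cMoP gave Csf1r at 2.30 and Csf2ra at 2.12 as higher (4.28% of all genes) and Kit at -2.93 as lower (37.7%), 3 of 7 in either direction against 41.9%, with medians of 0.01 and -0.58. That comparison is the sum of the other two and adds no evidence of its own. Of the 7 receptors, Kit alone differed by more than the SD over cells of both groups, in both comparisons with cMoP. The cMoP gate required its protein in both comparisons, so its place in these counts is no finding, and its SD in BM monocytes was 0.

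The measure of a difference decided its sign for some receptors. From cMoP to BM monocytes, Csf2rb and Csf3r were lower by mean log2 level and higher by the ratio of mean TPM. Csf2rb2 was at 0.05 by the first measure and 2.23 by the second, and Flt3 at -0.24 and -2.23. Csf1r, Csf2ra, Csf2rb and Csf3r all had a higher median among cells above 10 TPM in BM monocytes than in cMoP, as did 67.8% of the 7409 genes with at least 5 such cells in both. Of these 7409 genes, 77.5% exceeded 10 TPM in a smaller share of BM monocytes, and 50.7% did both, as Csf1r, Csf2rb and Csf3r did. A higher level in fewer cells was thus no particular mark of the receptors.

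**Figure D3:**
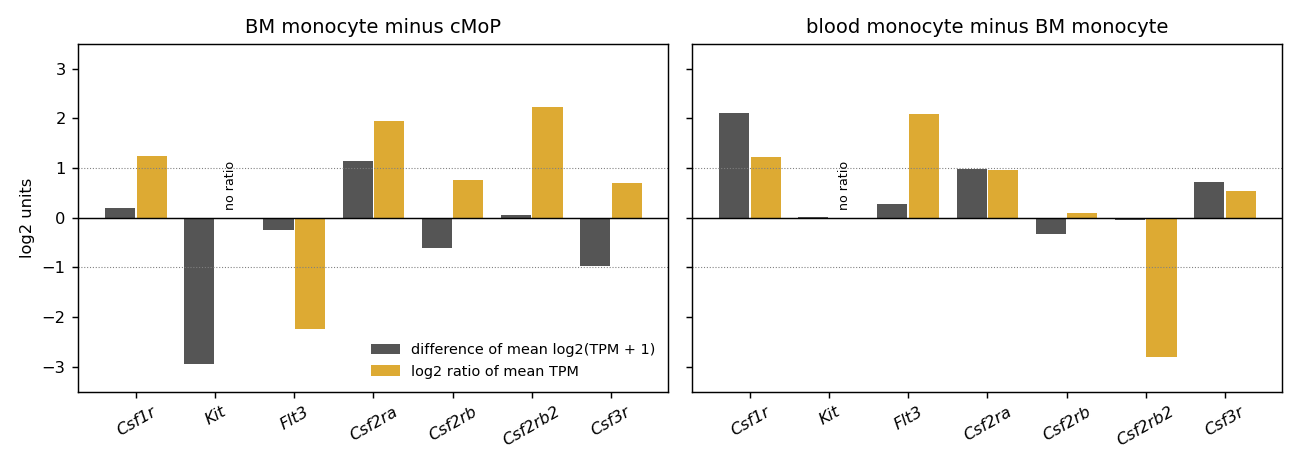
Difference of each receptor gene between BM monocytes and cMoP (left) and between blood and BM monocytes (right) in log2 units, as the difference of mean log2(TPM + 1) (grey) and as a ratio of mean TPM in log2 units (yellow); dotted lines mark 1 log2 unit, and Kit has no ratio because BM monocytes are at 0. Csf2rb and Csf3r have opposite signs on the left, at -0.61 and 0.76 and at -0.97 and 0.71.

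Set against each other within a cell, the receptors kept different orders in the 3 cell types. In cMoP, Csf1r was above Csf2rb in 30 cells and below it in 34, above Csf3r in 38 and below in 26, and above Kit in 45 and below in 17. In blood monocytes it was above Csf2ra in 26 of 38 cells, above Csf3r in 28 and above Csf2rb in 29. Csf2ra and Csf2rb exchanged places: Csf2rb was the higher in 49 of 66 cMoP, Csf2ra in 30 of 57 BM monocytes with 25 the other way, and Csf2ra in 24 of 38 blood monocytes. By mean TPM the order in cMoP was Csf3r, Csf1r, Csf2rb, Kit, Csf2ra, Flt3 and Csf2rb2. In BM monocytes it was Csf1r, Csf3r, Csf2rb, Csf2ra, Csf2rb2, Flt3 and Kit, and in blood monocytes Csf1r, Csf3r, Csf2ra, Csf2rb, Flt3, Csf2rb2 and Kit. On the log2 scale, neighbours in these orders differed by less than the larger of their SDs over cells, except Csf2ra at 4.07 ± 2.89 and Csf2rb2 at 1.14 ± 1.89 in BM monocytes.

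Single cells held several receptors at once. The median cMoP had 5 of the 7 genes above 1 TPM and the median BM or blood monocyte 4, while cMoP, BM monocytes and blood monocytes had 3, 2 and 2.5 above 10 TPM. No BM or blood monocyte had all 7, and 4 cMoP did, 3 of them among the 6 libraries that name no flow cell. The number of receptors followed the number of genes in cMoP, with r = 0.64 over 66 cells, and 0.50 without those 6 libraries, while r was 0.26 in BM monocytes and -0.11 in blood monocytes. These correlations describe cells of 1 sample each that share their library preparation.

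**Figure D4:**
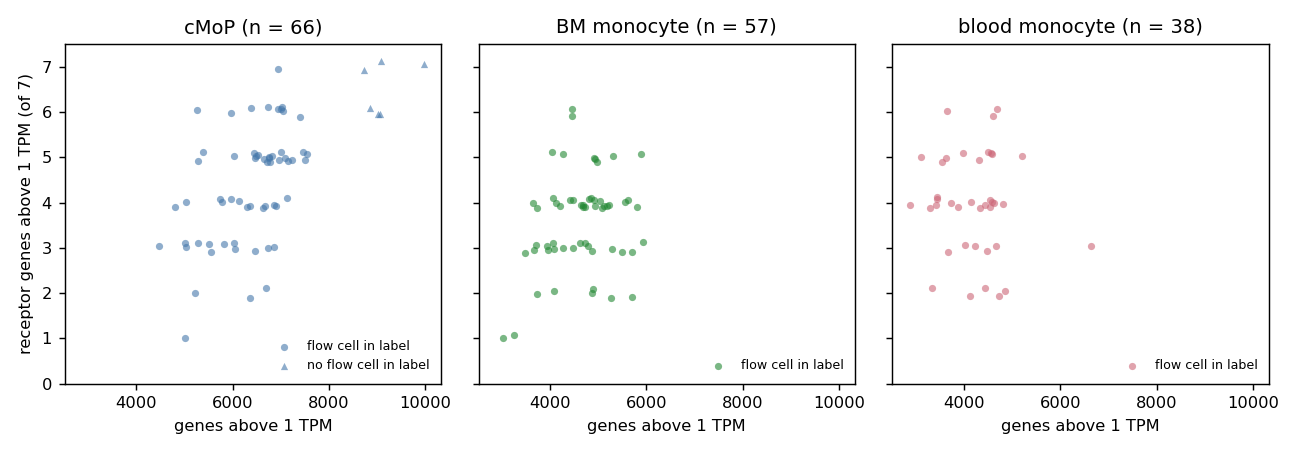
Number of receptor genes above 1 TPM (vertical axis, with small random offsets) against the number of all genes above 1 TPM in the same cell, for cMoP, BM monocytes and blood monocytes; triangles are the 6 cMoP libraries with no flow cell in their label. The triangles hold 6 or 7 receptors at 8720 to 9971 genes, and no relation of that size is seen in the monocytes.

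Kit and Csf1r were found together in about as many cMoP as not. Both exceeded 1 TPM in 35 of 66 cMoP (53%, 40.3% to 65.4%), Csf1r without Kit in 21, Kit without Csf1r in 4 and neither in 6. Above 10 TPM these counts were 27, 23, 5 and 11. Csf1r exceeded 10 TPM in 27 of 32 cMoP with Kit (84.4%, 67.2% to 94.7%) and in 23 of 34 without (67.6%, 49.5% to 82.6%), and the levels of the pair were hardly related over cells (r = 0.08, rho = 0.02, n = 66). All of these cells had been sorted as CD117+ CD115+.

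The pair with the closest relation over cMoP was Kit and Csf3r, with r = 0.38 and rho = 0.38 over 66 cells, and r = 0.38 without the 6 libraries that lack a flow cell. Csf3r exceeded 1 TPM in 34 of 39 cMoP with Kit (87.2%, 72.6% to 95.7%) and in 15 of 27 without (55.6%, 35.3% to 74.5%). Above 10 TPM the shares were 23 of 32 (71.9%, 53.3% to 86.3%) and 17 of 34 (50%, 32.4% to 67.6%). The intervals overlap at both levels. Cells with Kit above 1 TPM also held more genes, with a median of 6756 against 6368, and among cMoP with 4500 to 6000 genes the share with both was 29.4% of 17 cells, against 51.5% of all. The part of library size in the relation was not tested. Over the remaining pairs of Csf1r, Kit, Csf2ra, Csf2rb and Csf3r in cMoP, r was at most 0.27, for Csf1r and Csf2rb.

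Above 10 TPM, transcripts of the GM-CSF receptor chains were hardly related to each other cell by cell. Csf2ra and Csf2rb both exceeded 10 TPM in 24 of 66 cMoP (36.4%, 24.9% to 49.1%), 19 of 57 BM monocytes (33.3%, 21.4% to 47.1%) and 12 of 38 blood monocytes (31.6%, 17.5% to 48.7%). Csf2rb alone did so in 27, 14 and 8 cells and Csf2ra alone in 6, 13 and 12. Csf2rb was about as frequent among cells with Csf2ra above 10 TPM as among the others, at 80% and 75% of cMoP, 59.4% and 56% of BM monocytes and 50% and 57.1% of blood monocytes. Above 1 TPM Csf2rb was found in 93.9% of cMoP with Csf2ra and in 82.4% of those without. These shares were 72.1% and 64.3% in BM monocytes, with overlapping intervals in both cell types. At that level all 23 blood monocytes with Csf2rb held Csf2ra, which lay above it in 36 of 38. Il3ra, the chain that binds interleukin 3, was a scarcer partner: it exceeded 10 TPM in 7 cMoP, 4 BM monocytes and 2 blood monocytes, together with Csf2rb in 6, 4 and 0 of them.

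Csf3r and Csf1r, which bind the growth factors of granulocytes and of macrophages, were found together in many cells. Above 10 TPM both were present in 33 of 66 cMoP (50%, 37.4% to 62.6%), 13 of 57 BM monocytes (22.8%, 12.7% to 35.8%) and 14 of 38 blood monocytes (36.8%, 21.8% to 54%). Csf1r exceeded 10 TPM in 82.5% of cMoP with Csf3r above that level and in 65.4% of the others. These shares were 65% and 75.7% in BM monocytes and 77.8% and 100% in blood monocytes, so Csf1r was not more frequent with Csf3r there. The 4 blood monocytes with no Csf1r above 10 TPM all held Csf3r above it. Csf1r, Csf2ra, Csf2rb and Csf3r all exceeded 10 TPM in 15 cMoP, 3 BM monocytes and 7 blood monocytes, and 10 of these cMoP held Kit as well. Every BM and blood monocyte held at least 1 of these 4 genes above 10 TPM, and 2 cMoP held none.

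Exact sets of receptors above 10 TPM were many. The 66 cMoP showed 33 different sets, of which Csf1r, Kit, Csf2rb and Csf3r, and the same set with Csf2ra, were the most frequent, with 7 cells each. The 57 BM monocytes showed 17 sets, led by Csf1r, Csf2ra and Csf2rb in 11 cells and Csf1r alone in 8. The 38 blood monocytes showed 13 sets, with none in more than 5 cells.

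**Figure D5:**
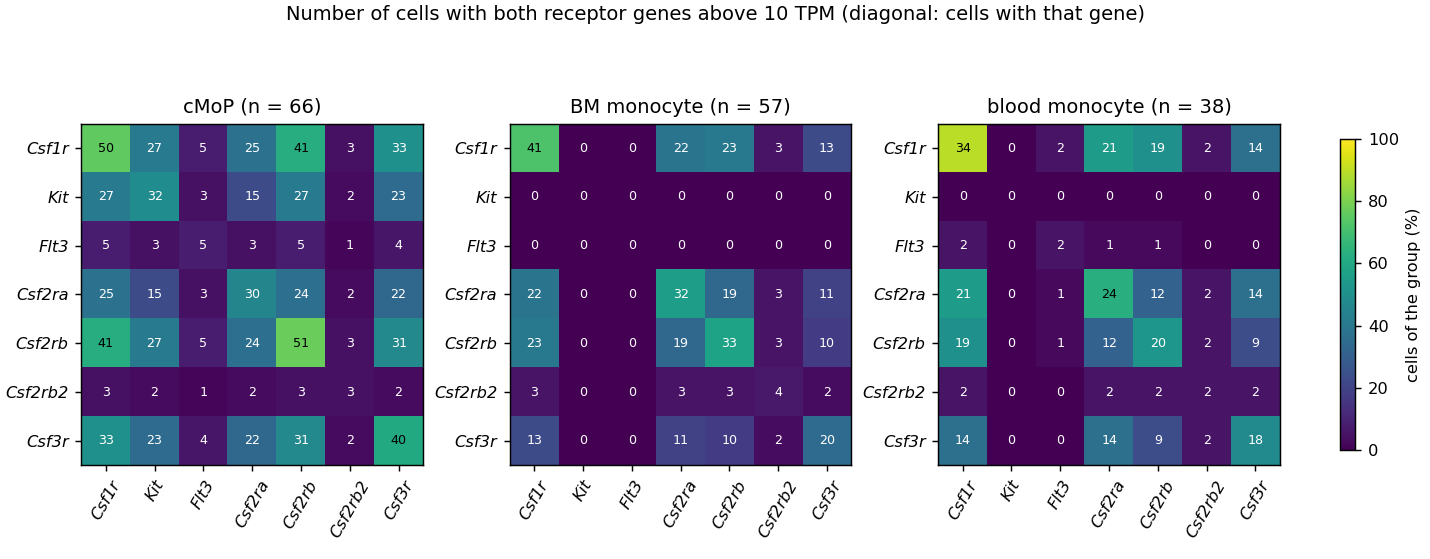
Number of cells with both receptor genes of a row and column above 10 TPM, in cMoP, BM monocytes and blood monocytes; the diagonal counts cells with that gene, and colour gives the percent of the cell type. In cMoP, Csf1r and Csf2rb meet in 41 of 66 cells and Kit and Csf3r in 23, and the rows of Kit are empty in the monocytes.

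Levels of some receptors followed gene programmes among cells of 1 type, given here as descriptions over cells that share a sample. In cMoP, Csf3r followed primary granule genes, which serve the granule proteases and myeloperoxidase of early myeloid cells (r = 0.43, rho = 0.48, n = 66), and was also related to the number of genes (r = 0.36). Its relation to S phase genes was r = 0.42 over all cMoP and 0.23 without the 11 libraries of high mitochondrial share. In BM monocytes Csf3r ran against S phase genes (r = -0.39, rho = -0.38, n = 57) and G2 and M phase genes (r = -0.34, rho = -0.26). BM monocytes with Csf3r above 10 TPM also held fewer genes, with a median of 4427 against 4897 in the others. The part of library size in these relations was not tested. Csf1r followed genes of Ly6C-low monocytes in cMoP (r = 0.35, rho = 0.30) and BM monocytes (r = 0.38, rho = 0.35), with r = -0.04 and rho = -0.12 in blood monocytes. Of such genes, Ace and Treml4 were at 0 in all 66 cMoP, while Spn exceeded 10 TPM in 54 cMoP and 11 BM monocytes. The relation in cMoP thus rested on part of that list and does not show the whole programme there. Csf2rb followed classical monocyte genes in cMoP (r = 0.45, rho = 0.33) and blood monocytes (r = 0.41, rho = 0.47), while r was -0.15 in BM monocytes. In cMoP its relation to the number of genes was of like size (r = 0.44), and that to classical monocyte genes was r = 0.33 without the 6 libraries that lack a flow cell.

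Single genes with the pattern most like a receptor were ranked over cells of 1 type by r of log2(TPM + 1). Among 5199 genes in cMoP, Kit was most like Meaf6 (r = 0.51), Suclg2 (0.50) and Cops6 (0.48), and Csf3r most like Sbds (0.57), Elovl5 (0.55) and Eif3k (0.52). Csf2rb was most like Prdx5 (0.62), Atp5j2 (0.61) and Ywhae (0.59), of which Atp5j2 had a rho of 0.13. Csf1r was most like Dctn4 (0.44), Cnnm4 (0.44) and Txn2 (0.43), and Csf2ra most like Vps13d (0.48), Mier1 (0.45) and Ube2b (0.44). Different genes came first in the monocytes. In BM monocytes, among 2727 genes, they were Angptl7 (0.48), Btg2 and Samsn1 for Csf1r, Itgal (0.48), Ctsd and Sft2d1 for Csf2ra, Stx5a (0.44), Eif2s2 and Msmo1 for Csf2rb, and H2-D1 (0.44), Ifi204 and Klf13 for Csf3r. In blood monocytes, among 2373 genes, they were Nfe2l2 (0.46), Srsf10 and Ccdc12 for Csf1r, Dzank1 (0.49), Yam1 and Upb1 for Csf2ra, Man2b1 (0.57), Hprt and Clec12a for Csf2rb, and Trf (0.50), Edem2 and Srsf11 for Csf3r. Each is the top of at least 2373 correlations over 38 to 66 cells.

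The ligands of these receptors were barely found in the cells themselves. Of 8 ligand genes (Csf1, Il34, Csf2, Il3, Il5, Csf3, Kitl and Flt3l), Flt3l was measured, above 1 TPM in 16.7% of cMoP and in 14% of BM and 13.2% of blood monocytes, with differences under 1. Csf1 exceeded 10 TPM in 3 cMoP, 0 BM monocytes and 1 blood monocyte, and Kitl in 1 cMoP and no monocyte.

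Other receptors of the same families were more often higher than lower in BM monocytes. Of 12 measured of 19 listed, 4 were higher and 2 lower than in cMoP, with a median of 0.12, beside the 3.94% and 30.8% of all genes given above. Il10ra, the interleukin 10 receptor chain, had a mean of 3.59 TPM over cMoP against 107 TPM over BM monocytes and exceeded 10 TPM in 8 and 25 cells, a difference of 2.87. Il2rg, the common gamma chain, differed by 1.68, from 40.7 to 255 TPM, and Il13ra1, a chain of the interleukin 4 and 13 receptors, by 1.52. Il11ra1, the interleukin 11 receptor chain, differed by -2.09, with means of 36.6 and 1.24 TPM. From BM to blood monocytes, 1 of 12 was higher and 0 lower: Il13ra1, by 2.08, exceeding 1 TPM in 28.1% and 68.4% of the cells.

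Kinases and adaptors that relay the receptors' signals went both ways. Of 33 measured of 35 listed, 5 were higher and 7 lower in BM monocytes than in cMoP, with a median of -0.22, where 3.94% and 30.8% of all genes were. By the ratio of mean TPM, 16 of 32 were higher and 6 lower, so the balance of the list turned with the measure. Of all genes 19.8% were higher and 27.1% lower by that ratio, so more were lower by either measure. The Src family kinases were among the higher: Fgr was listed at 0 in all 66 cMoP and exceeded 10 TPM in 39 of 57 BM monocytes, a difference of 5.12, and Lyn differed by 2.51, from 46.4 to 257 TPM. From BM to blood monocytes, 1 was higher and 3 lower (1.96% and 9.66% of all genes), led by the MAP kinase cascade genes Map2k1 at -1.85 and Mapk3 at -1.35, followed by the PI3-kinase subunit Pik3r1 at 1.21 and the phospholipase Plcg2 at -1.05. The median there was 0.01.

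Of the negative regulators of receptor signalling, 14 of 18 listed were measured, and 2 were higher and 0 lower in BM monocytes than in cMoP, with a median of -0.04, where 3.94% and 30.8% of all genes were: the adaptor genes Sla at 1.24 and Dok3 at 1.09. From BM to blood monocytes 1 was higher, the phosphatase gene Ptprj at 1.16, and 4 were lower, with a median of -0.04, which is 5 of 14 in either direction against 11.6% of all genes. The lower ones were the ubiquitin ligase gene Cbl at -1.45, which acts on activated Kit and Csf1r, Dok3 at -1.35, the phosphatase gene Ptpn6 at -1.19 and Sla. Ptpn6 had a log2 ratio of mean TPM of 0.05 there, and Sla, at -1.13, was at 0.12 among cells with 4500 to 6000 genes, so the direction of both rested on the processing.

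Transcription factors known to act on these receptor genes were lower in BM monocytes about as often as all genes were. Of 13 measured of 16 listed, 1 was higher and 4 lower in BM monocytes than in cMoP, with a median of -0.46 beside -0.45 for all genes, of which 3.94% were higher and 30.8% lower. Myb, a factor of proliferating progenitors, differed by -4.68 and exceeded 10 TPM in 49 of 66 cMoP and 3 of 57 BM monocytes. Irf8, required for monocyte and dendritic cell development, differed by -2.91, with medians of 284 and 52.4 TPM. Lmo2 differed by -2.55 and Cebpa by -1.64. By the ratio of mean TPM, 4 were higher and 2 lower. From BM to blood monocytes 4 were higher and 1 lower, with a median of -0.07. Cebpb at 1.12, Ets2 at 1.09 and Cebpa at 1.04 were among the higher, and Klf4 at -1.56 was the lower one. Of all genes 1.96% were higher and 9.66% lower in that comparison. Spi1, the PU.1 factor of myeloid receptor promoters, exceeded 10 TPM in 38 of 66 cMoP, and in 34 of 57 BM and 22 of 38 blood monocytes.

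Markers of lymphoid, erythroid and macrophage cells were at or near 0 in the median cell of every type, except the NK cell list in cMoP. B cell markers summed to at most 15.5, 7.74 and 10.8 TPM in cMoP, BM monocytes and blood monocytes, with Cd79a and Pax5 at 0 in every cell. T cell markers summed to at most 28.6, 12.5 and 10.2 TPM with Cd3e and Cd3g at 0. NK cell markers summed to at most 6.38 and 31.9 TPM in BM and blood monocytes, and in cMoP to a median of 109 and a highest sum of 2803 TPM. That came from Nkg7, a granule gene that also stands in the primary granule list and exceeded 10 TPM in 46 of 66 cMoP, while Ncr1 was at 0. Erythroid markers summed to at most 118, 199.8 and 13.8 TPM, with medians of 0, and macrophage markers to at most 28.2, 220.2 and 4.2 TPM, with medians of 0. Conventional dendritic cell markers had medians of 2.17, 4.46 and 1.54 TPM and reached 348, 1561 and 1363 TPM, and plasmacytoid dendritic cell markers had medians of 24, 2.9 and 4.11 TPM and reached 399, 369 and 289 TPM. Their part in the receptor values was not tested beyond the cells described above.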

How the data were processed

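Single-cell mRNA was measured in 161 libraries. The deposited values are TPM per gene and cell, which the authors made with RSEM 1.2.19 on GRCm38, per the submitters' processing notes; aligner and annotation were not given in the sources used here. Column sums ran from 997939 to 999955 TPM. Groups came from the labels, no 2 columns were identical, and the replicate number only names a cell.

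From the TPM, mean log2(TPM + 1), medians, shares above 1 and 10 TPM with 95% exact (Clopper-Pearson) intervals and Pearson and Spearman correlations over cells were computed with Python 3.11.15, numpy 2.4.6, pandas 2.3.3 and scipy 1.17.1, and figures with matplotlib 3.10.9. The function for mean log2 levels was tested on simulated data, resampled from BM monocyte values, and the others were not. With 1 sample per group, no p-value is given. A listed 0 can be a transcript lost in capture. A gene counted as measured if 10% or more of a group's cells exceeded 1 TPM, and as different at 1 log2 unit.

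Named were the 7 receptors, the 3 genes most like each in a cell type (among genes that 50% or more of its cells held above 1 TPM, without predicted, mitochondrial, ribosomal protein and microRNA genes), up to 4 measured members per list with the largest difference, and markers beside a result. Some genes that this rule names are not reported here. Csf1, Kitl, Spi1 and Il3ra were named outside this rule, after their values were seen. The members and lists were chosen with earlier results of these data known. Positions and coding sequences are from GENCODE vM21. Alternatives were other pseudocounts, scalings, filters and sets of cells.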

Additional observations from a re-analysis of the deposited data

How the results depend on the processing

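No paired analysis was possible because no label ties a cell of one group to a cell of another, and the replicate numbers follow accession order. From cMoP to BM monocytes, 2 receptors passed 1 log2 unit, 4 with a pseudocount of 0.1 TPM, 1 with 10 TPM and 5 by the log2 ratio of mean TPM. Between blood and BM monocytes, 1 did, 2 with a pseudocount of 0.1 TPM, 4 by the ratio, 2 with median-ratio scaling and 3 among cells with 4500 to 6000 genes (17 cMoP, 33 BM and 14 blood monocytes). Detection above 0 TPM raised the share of cMoP with Csf1r and Kit from 53% to 66.7%. Counting receptors above 10 TPM gave medians per cell of 3, 2 and 2.5. The correlation of Csf2rb with primary granule genes in cMoP, r = 0.36, was -0.07 without the libraries of high mitochondrial share, and the cause was not tested. Of 145 alternative values for single differences, 21 had the opposite sign, all for receptors whose difference was under 1; in 2 of them, Csf2rb and Csf3r between blood monocytes and cMoP, the value passed 1 the other way, from -0.93 to 1.29 among cells with 4500 to 6000 genes and from -0.24 to 1.24 by the ratio. Over all measured genes, the share of higher among different genes from cMoP to BM monocytes was 11.3%, 42.3% by the ratio and 47.5% among cells with 4500 to 6000 genes, and from BM to blood monocytes 16.9%, 45.8% and 32.5%. Median-ratio scaling moved the median of all genes between blood monocytes and cMoP from -0.58 to -0.45. Read depth is unknown, and capture of few molecules per cell limits every share given.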
